A study of Mus musculus with 103 samples.

Results

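Peritoneal macrophages that had been given KLA for 24 h were compared with macrophages left untreated for the same 24 h, by poly(A) RNA sequencing of 1 library each, or 2 of the 103 samples of the series. KLA (Kdo2-lipid A) is the lipid A of bacterial lipopolysaccharide with Kdo sugars attached, and it acts on the receptor TLR4. The series is about lipid metabolism and inflammation in macrophages over time, and this comparison asks how the RNAs of both kinds stood at the last time of KLA. Both libraries came from wild-type C57BL/6 male mice of 6 to 8 weeks, with no transgene or deletion named in the labels. The cells were collected from the peritoneum by lavage 3 to 4 days after an injection of 2.5 ml of thioglycollate, a sterile broth that draws monocytes into the cavity. They were plated in medium with 10% fetal bovine serum, held overnight in 0.5% serum and then given 100 ng/ml of KLA or nothing. The labels do not say whether mice were pooled or whether the cultures shared mice. A second untreated library, which served as the control for 1 to 12 h of KLA, and the libraries of 1, 6 and 12 h of KLA were used as checks.

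RNA levels are in RPKM, which divides the reads of a gene by the length of its transcript and by the reads of the library, in the table the authors deposited for build mm9. Of its 24014 gene symbols, each represented by the transcript with the highest mean RPKM over the 6 libraries, 10383 reached an RPKM of at least 1 in 2 of the 6 libraries with a transcript of at least 200 bases. These 10383 genes were compared. A gene is called higher or lower here when RPKM + 1 differed at least 2-fold between the 2 libraries. A gene under 1 RPKM untreated could therefore not be called lower. Since the filter counts all 6 libraries, some genes passed it only through their level with KLA. With 1 library a side there is no replicate and no p-value, and folds given for single genes are plain RPKM ratios with a 95% exact counting interval, which covers the error of counting reads and nothing else.

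TLR4 signals through the adaptors MyD88 and TRIF. The first leads to NF-κB and to cytokine and chemokine genes, and the second to interferon β, which then acts on the same cells through STAT and IRF factors and brings up antiviral and antigen presentation genes. Macrophages elicited with thioglycollate are rich in lysosomes, lipid droplets and scavenger receptors, and the receptors PPARγ and LXR and the SREBP factors set much of their lipid metabolism.

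After 24 h of KLA, 999 of the 10383 genes stood at least 2-fold above their level without KLA (9.62%) and 1072 at least 2-fold below it (10.3%). The interval of the ratio lay beyond 1 for 957 of the 999 higher and for 1017 of the 1072 lower genes. Large differences were mostly upward, since 202 genes were at least 10-fold higher and 22 at least 10-fold lower. Against the other untreated library 1021 genes were higher and 1187 lower. The genes on the same side of both controls numbered 799 higher (7.70%) and 761 lower (7.33%), or 80.0% of the higher and 71.0% of the lower genes. A pair of genes, A930005H10Rik and Ltc4s, was higher against 1 control and lower against the other. Both had an RPKM of 0 in the untreated 24 h library, and they were singled out after their values were seen. The 2 untreated libraries themselves differed at least 2-fold at 108 genes in one direction (1.04%, higher in the 24 h library) and at 203 in the other (1.96%). The median log2 difference over all genes tested was -0.10 between KLA and the untreated 24 h library.

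**Figure D1:**
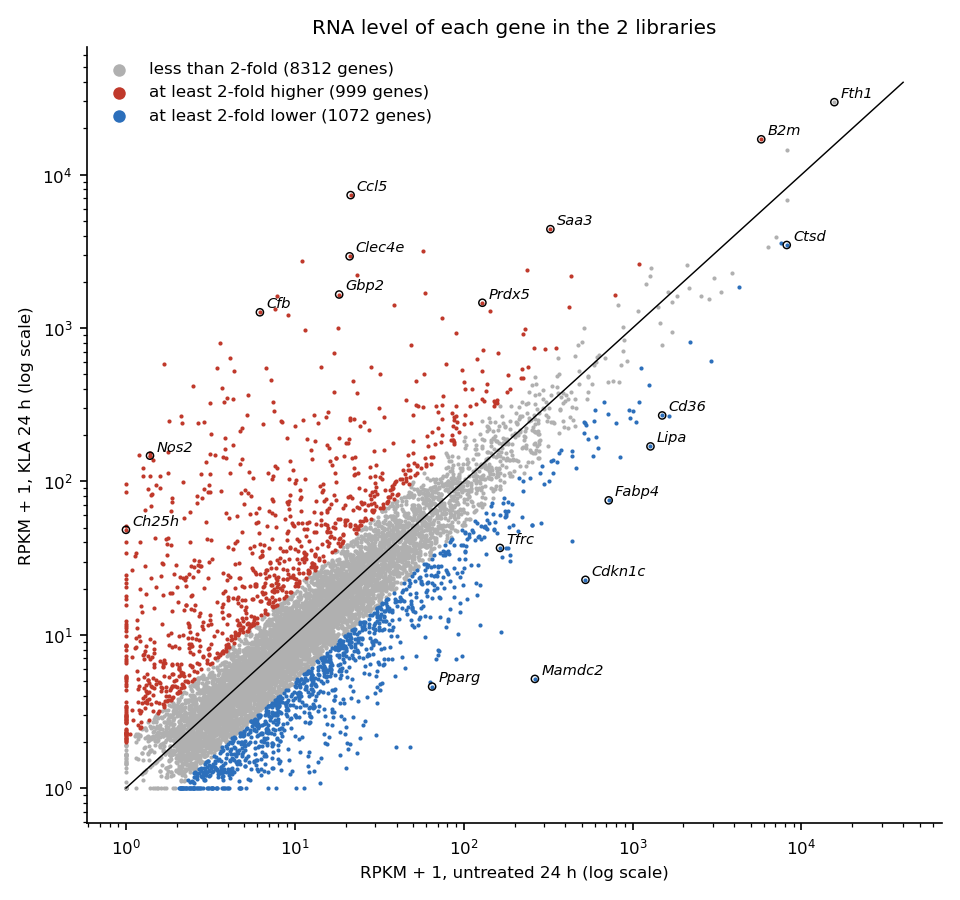
RNA level of each of the 10383 genes tested, as RPKM + 1 on log scales, in the untreated 24 h library (horizontal) and the KLA 24 h library (vertical). The line marks equal levels, red points are the 999 genes at least 2-fold higher and blue points the 1072 at least 2-fold lower, grey points are the other 8312, and circled genes are named in the text.

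The 6 libraries held 2205187 to 2674826 reads, recovered from the RPKM steps, so that 1 read in a transcript of 1 kb was worth 0.374 to 0.453 RPKM. The 10 most abundant genes took 16.8% of the reads in genes in the untreated 24 h library and 13.8% in the KLA library. The labelled cell type was checked on 10 macrophage markers, all of which were measured. Cd68 was at 1835 RPKM untreated and 1619 with KLA, Csf1r at 117 and 120.1, and Emr1, which encodes F4/80, at 74.5 and 357. Of the 10 markers 3 were at least 2-fold higher and 2 at least 2-fold lower, with Lgals3 at 4265 and 1838. The list summed to 21696 RPKM untreated, 15233 with KLA and 26429 in the other untreated library. Markers of erythroid cells were listed at 0 in both libraries for 7 of 7 genes, and the 6 eosinophil markers in the table summed to 0.662 and 0.114 RPKM. The 11 T and NK cell markers in the table summed to 2.83 and 4.25 RPKM, the 7 B cell markers to 11.0 and 7.49 and the 8 dendritic cell markers to 2.66 and 9.49, with 8.90 of the last coming from Ccr7. Of 10 neutrophil markers, 4 were at 0 in both libraries, among them S100a9 and Mpo, and the list summed to 60.1 and 139 RPKM, of which S100a8 made up 45.5 and 118. The 11 fibroblast and mesothelial markers summed to 128 RPKM untreated, 191 with KLA and 130.4 in the other untreated library. The part of these cells in the differences below was not tested. Fewer cells of a type and less RNA per cell cannot be told apart in bulk libraries such as these.

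Short stretches of promoter are shown first for 9 genes whose RNAs were higher after KLA, picked because they hold the letters of the elements that STAT and IRF factors or NF-κB bind. Each line gives the 150 bases before the RefSeq transcription start (build GRCm38.p6), 5′ to 3′ on the gene's strand. Capitals mark an interferon element, taken as GAAA, 2 bases of any kind and GAAA again, on either strand, or an NF-κB type element, taken as GGGA, 1 base of any kind and TTTCC, on either strand. Overlapping matches run together.
Ifit1 (chr19:34640739-34640888, + strand, interferon element): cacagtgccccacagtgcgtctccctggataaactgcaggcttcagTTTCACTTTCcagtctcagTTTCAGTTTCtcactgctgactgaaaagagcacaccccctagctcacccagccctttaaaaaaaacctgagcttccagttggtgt
Isg15 (chr4:156200819-156200968, - strand, interferon element): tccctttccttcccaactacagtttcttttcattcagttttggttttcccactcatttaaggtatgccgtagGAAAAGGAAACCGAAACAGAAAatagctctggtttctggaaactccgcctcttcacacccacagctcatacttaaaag
Gbp2 (chr3:142620513-142620662, + strand, interferon element): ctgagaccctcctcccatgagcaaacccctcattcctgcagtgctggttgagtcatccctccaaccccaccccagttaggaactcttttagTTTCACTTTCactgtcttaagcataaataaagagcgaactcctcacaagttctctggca
Igtp (chr11:58199406-58199555, + strand, interferon element): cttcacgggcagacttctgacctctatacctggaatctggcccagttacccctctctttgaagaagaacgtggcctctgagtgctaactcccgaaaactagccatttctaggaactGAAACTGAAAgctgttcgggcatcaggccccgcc
Irgm1 (chr11:48871421-48871570, - strand, interferon element): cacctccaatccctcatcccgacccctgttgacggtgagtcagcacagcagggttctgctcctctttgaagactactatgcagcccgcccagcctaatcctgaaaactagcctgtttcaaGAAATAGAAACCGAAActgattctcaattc
B2m (chr2:122147537-122147686, + strand, interferon element and then NF-κB type): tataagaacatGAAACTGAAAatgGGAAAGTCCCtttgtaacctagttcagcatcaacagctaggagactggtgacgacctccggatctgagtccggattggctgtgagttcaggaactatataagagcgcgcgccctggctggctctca
Cxcl1 (chr5:90891095-90891244, + strand, NF-κB type): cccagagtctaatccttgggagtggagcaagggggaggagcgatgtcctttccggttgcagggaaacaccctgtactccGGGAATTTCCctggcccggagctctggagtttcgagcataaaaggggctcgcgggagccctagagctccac
Il6 (chr5:30012964-30013113, + strand, NF-κB type): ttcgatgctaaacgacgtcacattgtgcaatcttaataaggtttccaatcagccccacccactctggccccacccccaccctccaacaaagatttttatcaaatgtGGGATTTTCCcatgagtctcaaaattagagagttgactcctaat
Nfkbia (chr12:55492648-55492797, - strand, NF-κB type): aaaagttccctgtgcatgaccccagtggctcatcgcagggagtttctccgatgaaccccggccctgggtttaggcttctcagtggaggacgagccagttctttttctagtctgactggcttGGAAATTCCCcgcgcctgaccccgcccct
Promoters of 300 bases, from 250 before to 50 after the start, were found in RefSeq for 8362 of the 10383 genes, 10647 promoters in all. The interferon element letters were in 3.40% of all of them, in 11.0% of the 972 promoters of higher genes and in 2.19% of the 1144 promoters of lower genes. By list, 9 of 11 promoters of guanylate-binding proteins and immunity GTPases held it (81.8%), 5 of 11 of cytosolic nucleic acid sensors (45.5%), 10 of 29 of antiviral effectors (34.5%), 5 of 21 of MHC class I and immunoproteasome genes (23.8%) and 3 of 29 of IRF, STAT and SOCS genes (10.3%). The letters did not track the differences in every list, since 6 of 39 promoters of cytosolic ribosomal protein genes held them (15.4%), a list with 1 of 44 genes higher, and none of 10 of MHC class II and costimulation genes did. The NF-κB type letters were in 0.441% of all promoters, 1.34% of those of higher and 0.175% of those of lower genes, and in 3 of 18 promoters of chemokines. Matches are letters in a window and were not set against binding in these cells.

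Among the receptors, the one that KLA acts on was not higher, while others of its family were. Tlr4, the receptor of KLA (chr4:66488845-66503830, mm9), was at 43.0 RPKM untreated, 27.4 with KLA and 26.4 in the other untreated library, so that it was lower than its own control (1.57-fold, 1.35 to 1.83) and near the other. Its co-receptor genes differed from each other. Cd14 was at 52.8 and 309.9 RPKM, 5.86-fold higher (5.09 to 6.78), while Ly96, which encodes MD-2, was at 45.6 and 39.7. Among 22 Toll-like receptor and adaptor genes tested, 5 were at least 2-fold higher (22.7%), 2 were lower (9.09%) and the median log2 difference was 0.34. Over all genes tested 9.62% were higher and 10.3% lower. Against the other untreated library 8 were higher, Tlr1, Tlr6 and Tlr9 being the 3 added ones, and none was lower. Tlr2, the receptor of bacterial lipopeptides, was the highest above its control, at 9.07 and 229.5 RPKM, 25.3-fold higher (19.8 to 32.8). Tlr3 and Tlr7, which sense RNA, were at 23.8 against 4.91 and 201 against 73.1 RPKM. Tlr8 and Tlr13 were the 2 lower genes, at 24.8 against 69.3 and 42.4 against 106 RPKM, both less than 2-fold below the other untreated library (40.9 and 76.7). The adaptor Myd88 was at 23.5 and 72.5 RPKM, and Ticam1, which encodes TRIF, at 15.6 and 14.1.

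Cytokine genes were higher at 24 h, 19 of 25 tested, and none was lower, with a median log2 difference of 2.09. Members under 1 RPKM untreated, such as Il12a and Ifnb1 below, could not be called lower. Il1a, which encodes interleukin-1α, was at 37.6 RPKM untreated, 21.6 in the other untreated library and 1410 with KLA, 37.5-fold higher (32.5 to 43.5). Il1rn, the gene of the interleukin-1 receptor antagonist, was abundant already without KLA, at 229.9 RPKM, and reached 984 (4.28-fold, 4.04 to 4.53). Il1a and Il1b, whose products act on this receptor, and Il1rn, whose product blocks it, were thus all higher in the KLA library. Il12a, a chain of interleukin-12, had no read in either untreated library and was at 50.0 RPKM, at least 54.8-fold higher. Il27 and its partner Ebi3 were at 19.6 and 29.1 RPKM, against 0 and 7.60. Ifnb1, the gene of interferon β, had no read in either untreated library and 4 reads with KLA (1.94 RPKM), against 30.3 RPKM after 1 h of KLA. Il15, a growth factor of NK cells, was at 9.40 and 52.8 RPKM, and its receptor chain Il15ra at 1.97 and 53.1 (26.9-fold, 12.8 to 67.9). Il10 and Csf2 had no read in either 24 h library, and were at 3.19 and 18.6 RPKM after 1 h. For a transcript of 1 kb, the floor of 3 reads allows up to 1.16 RPKM untreated and 1.12 with KLA where none was counted. Tgfb1 was at 117 and 103 RPKM.

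Most chemokines were far higher and a few were lower. Of 25 tested, 18 were at least 2-fold higher, 2 were lower and the median log2 difference was 3.97. Ccl5, which attracts T cells and monocytes (chr11:83339281-83344020, mm9), was the fourth most abundant RNA of the KLA library, at 7350 RPKM against 20.4 and 21.4 in the untreated libraries. Ccl2, the main attractant of monocytes, was at 56.7 RPKM untreated and 3154 with KLA, 55.7-fold higher (46.4 to 67.4). The 3 ligands of CXCR3 were all higher. Cxcl10 was at 1213 against 8.09 RPKM, Cxcl9 at 107 against 0.266 and Cxcl11 at 16.8 against 0. Ccl6 was the other way round, at 459 RPKM untreated, 308 in the other untreated library and 122 with KLA, 3.76-fold lower (3.39 to 4.18). Cxcl12 was at 7.00 and 2.19 RPKM, but the other untreated library was also low, at 2.66. Ccl8 was higher than its own control (22.7 against 8.34 RPKM) and below the other (28.5).

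Receptors for these signals differed in direction, with 6 of 15 chemotactic receptors higher than both controls and 2 lower. The formyl peptide receptors, which sense bacterial peptides, had the largest differences of the 15, with Fpr1 at 0.585 and 108 RPKM (185-fold, 50.9 to 1535, on 2 reads untreated) and Fpr2 at 1.49 and 417. Cxcr4, the receptor of Cxcl12, and Ccr2, the receptor of Ccl2, were the 2 lower ones. Cxcr4 (chr1:130484776-130488876, mm9) was at 89.5 RPKM untreated, 124 in the other untreated library and 5.98 with KLA, 15.0-fold lower (10.3 to 22.6). Ccr2 was at 1.94 and 0.313 RPKM. Cytokine receptors were higher for 9 of 27 tested (33.3%) and lower for 5 (18.5%), against 9.62% and 10.3% of all genes tested. The lower ones included Tgfbr2, Il6ra and Il10rb. Tgfbr2 was at 15.6 against 47.8 RPKM (3.07-fold lower, 2.61 to 3.63), Il6ra at 3.13 against 11.4 and Il10rb at 104 against 245. Csf1r and the GM-CSF receptor genes Csf2ra and Csf2rb were at 117, 96.8 and 113 RPKM untreated and 120.1, 92.7 and 138 with KLA.

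In the list of NF-κB subunits and feedback genes 15 of 25 were higher and 2 lower, with a median log2 difference of 1.40. Socs3 and Traf1 had the largest differences, at 110.2 against 2.13 RPKM and 84.1 against 2.16. The IκB genes Nfkbia, Nfkbib, Nfkbie and Nfkbiz, whose products hold NF-κB in the cytosol or act on it in the nucleus, were all at least 2-fold higher, with Nfkbia at 256 against 20.3 RPKM. A pair of genes known for a fast and brief response was less than 2-fold above the control at 24 h. Dusp1, a phosphatase that ends MAP kinase signalling, was at 18.1 RPKM untreated and 26.0 after 24 h, but at 1235 after 1 h. Zfp36, which destabilises cytokine RNAs, was at 32.9, 40.9 and 813 in the same 3 libraries. Dusp2 was lower, at 0.925 against 4.30 RPKM, as was Tsc22d3, a glucocorticoid-induced gene, at 24.5 against 97.2 (3.97-fold, 3.27 to 4.86).

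The antiviral interferon effectors on the list were higher almost without exception. Of 30 antiviral effectors 29 were at least 2-fold higher than both controls, with a median log2 difference of 4.80. Ifi44 was at 0.266 and 121 RPKM, and Bst2, which encodes tetherin, at 58.1 and 1692 (29.1-fold, 24.2 to 35.4). Ifitm3, which blocks viral entry at the endosome, was the most abundant of them, at 235 RPKM untreated and 2400 with KLA (10.2-fold, 9.19 to 11.3). Ifitm6, a gene of the same family that was not on the list, went the other way. It was among the 15 lowest genes, with log2 differences of -3.78 and -2.34 against the untreated 24 h and the other untreated library. The Ifit1 and Isg15 promoters printed above belong to genes at 524 and 1323 RPKM, against 3.37 and 6.65.

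The guanylate-binding proteins and immunity GTPases, which attack the vacuoles of intracellular microbes, were higher without exception among the 15 tested (median log2 difference 5.30). Gbp10, Gbp11 and Gvin1 did not pass the filter on low values. Gbp2 was the most abundant, at 17.3 RPKM untreated, 15.2 in the other untreated library and 1652 with KLA, 95.3-fold higher (79.0 to 116). Irgm1, Igtp and Ifi47 were at 557, 286 and 559.7 RPKM, against 27.4, 6.50 and 13.2. Gbp4 had no read in the untreated 24 h library and was at 84.0 RPKM, at least 324-fold higher. Members of these clusters are close in sequence, as are Tgtp1 (31.6 RPKM with KLA) and Tgtp2 (68.4), and reads that fit more than 1 copy could have been given to any of them. Of the 15 genes, 13 had their highest level at 24 h among the 4 times of KLA, while of the 29 higher antiviral effectors 6 did, 13 being highest at 6 h and 10 at 12 h. Iigp1 was at 76.1, 99.0 and 248 RPKM at 6, 12 and 24 h, and Tgtp1 at 0.600, 5.24 and 31.6. Mx1, an antiviral effector, had the opposite order, at 415, 218 and 82.0.

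Cytosolic sensors of DNA and RNA were higher for 13 of 15 genes (median log2 difference 2.71), with the DNA-binding Ifi205 at 321 against 2.16 RPKM and the RNA sensor Ddx58, which encodes RIG-I, at 49.5 against 6.73. Mavs, the mitochondrial adaptor of RIG-I, was at 11.5 against 13.9. In the list of IRF, STAT and SOCS genes 12 of 26 were higher and 1 lower. Irf7 and Irf1, which drive interferon and its targets, were at 967 and 384 RPKM, against 10.5 and 16.1. Irf3, which is activated as a protein by TRIF, was at 12.0 and 9.58. The receptor genes of type I interferon were at 15.9 and 21.6 RPKM for Ifnar1 and 63.5 and 209 for Ifnar2 (3.28-fold higher, 2.79 to 3.88). Ifngr1, a receptor chain of interferon γ, was lower at 27.1 against 69.1 RPKM, though less than 2-fold below the other untreated library (51.4).

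**Figure D2:**
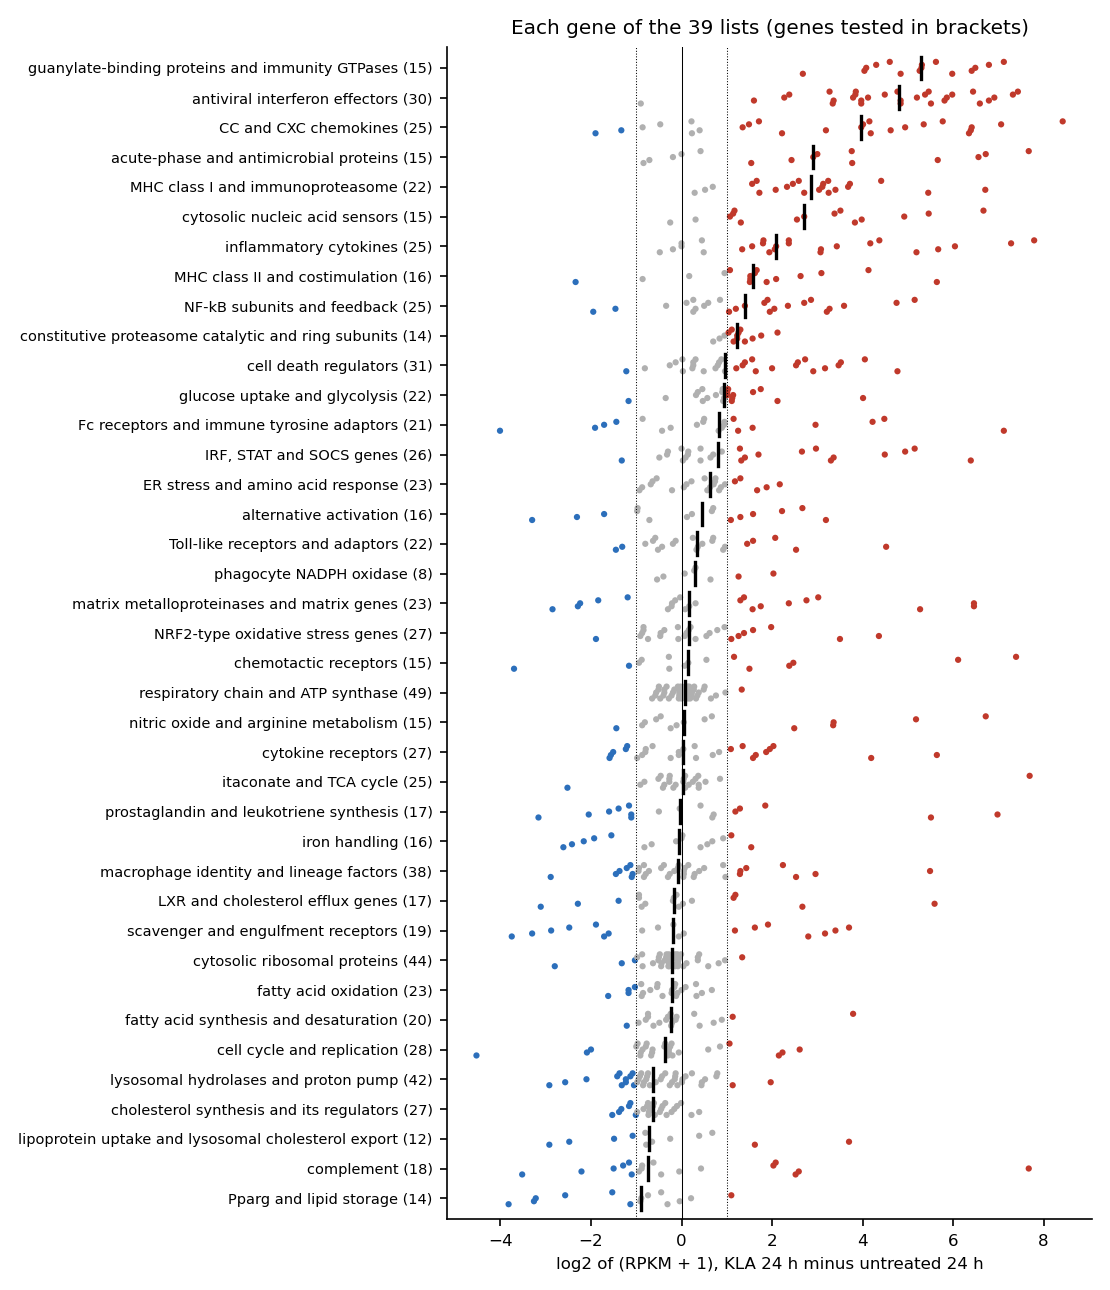
Log2 difference of RPKM + 1, KLA 24 h minus untreated 24 h, for each gene of the 39 lists, ordered by median (black bars), with the number of genes tested in brackets. Red points are at least 2-fold higher and blue points at least 2-fold lower (dotted lines), and the lists run from guanylate-binding proteins and immunity GTPases (median 5.30) to Pparg and lipid storage (median -0.90).

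The antigen presentation machinery was higher from the protease to the presenting molecule. In MHC class I presentation, proteins are cut by the proteasome, moved into the endoplasmic reticulum by TAP and loaded on class I chains with β2-microglobulin. Of 22 genes of this list 19 were at least 2-fold higher, none was lower and the median log2 difference was 2.87, or 2.34 against the other untreated library. B2m was the second most abundant RNA with KLA, at 16995 RPKM against 5777 and 5030 untreated (2.94-fold, 2.88 to 3.00). The catalytic subunits of the immunoproteasome, Psmb8, Psmb9 and Psmb10, were at 503, 192 and 242 RPKM, against 57.2, 17.3 and 24.7. Tap1 was 23.8-fold higher (18.4 to 31.5) at 189.6 against 7.96 RPKM, and Nlrc5, the class I transactivator, was at 22.9 against 1.50. The class I chains differed in size of change. H2-K1 was at 433 and 2175 RPKM, while H2-D1 was at 1207 and 1944 with 1851 in the other untreated library. The nonclassical H2-Q6 and H2-Q7 were at 145 and 147 RPKM, against 0.394 and 2.39. Class I chains are near copies of one another, so reads may be split between them.

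The standard proteasome was higher as well. All 14 subunits of the catalytic core on the list lay above 0 on the log2 scale (median 1.23) and 11 of them reached 2-fold. With the other untreated library as control 7 did, and the median was 0.96. Psma7 was at 88.6 RPKM untreated, 130.2 in the other untreated library and 266 with KLA, 3.00-fold higher (2.57 to 3.51). Psmb5, the subunit that Psmb8 replaces in the immunoproteasome, was at 28.0 and 55.0 RPKM, just under the 2-fold mark.

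MHC class II and costimulation genes were higher for 12 of 16 and lower for 1 (median log2 difference 1.57). Ciita, the class II transactivator, was at 0.456 RPKM on 6 reads untreated and at 8.01 on 109 reads with KLA, and at 1.57 and 2.25 at 6 and 12 h. H2-Ab1 and H2-DMb1 were at 316 and 51.3 RPKM, against 73.3 and 13.3. Ciita, H2-Ab1, H2-DMa and H2-DMb1 were among the 91 genes (11.4% of 799) that were higher than both controls at 24 h and not 2-fold above the other untreated library at 1, 6 or 12 h. The costimulatory genes Cd40 and Cd86 were at 191 and 83.4 RPKM, against 2.86 and 3.81. Cd274, which encodes the inhibitory ligand PD-L1, was higher with them, at 51.5 and 447 (8.68-fold, 7.90 to 9.55). Havcr2, which encodes the inhibitory receptor TIM-3, was 8.79-fold lower (4.22 to 21.2) at 1.10 against 9.65 RPKM.

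Over the times of KLA, 386 of the 799 genes higher than both controls (48.3%) had their highest level after 24 h, while 152 were highest after 12 h, 218 after 6 h and 43 after 1 h. These genes were chosen by their 24 h level, which favours a highest level at 24 h. Genes that had fallen back by then are left out, so the shares do not give the timing of the whole response. Among the 19 cytokines chosen in this way, 2 were highest at 24 h and 11 at 6 h. Acute-phase genes (7 of 10), class II and costimulatory genes (6 of 10) and all 5 higher complement genes peaked at 24 h. Tnf was at 5276, 1648, 1160 and 639 RPKM after 1, 6, 12 and 24 h, so that the last value was the lowest of the 4 and still far above 3.13 and 18.9 without KLA. The 24 h library has its own control and the others share a different one, so these orders compare levels and not folds.

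**Figure D3:**
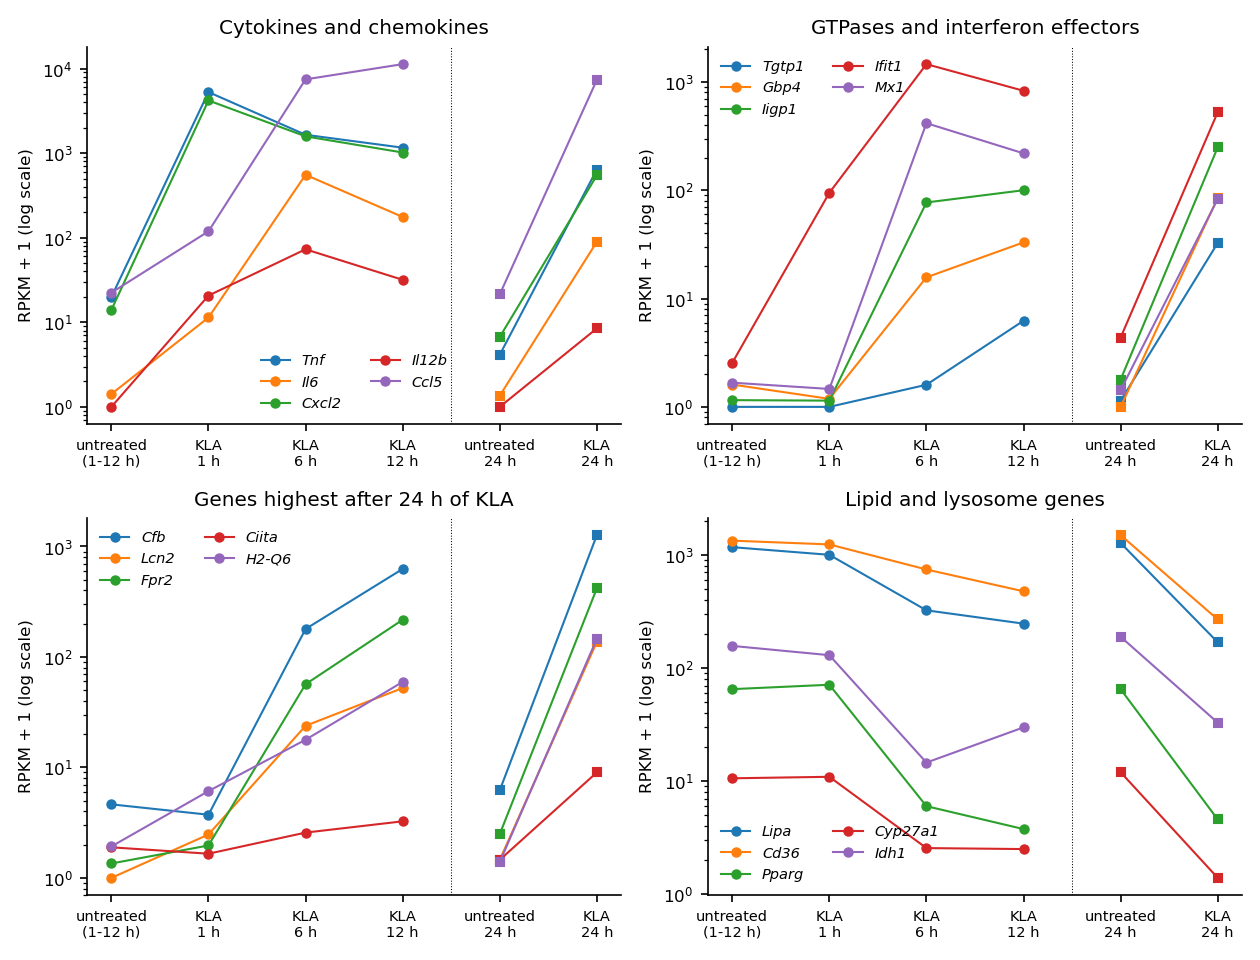
RPKM + 1 on a log scale in the 6 libraries, with the untreated control and KLA at 1, 6 and 12 h joined on the left of the dotted line and the 24 h pair on the right. Tnf and Cxcl2 were highest at 1 h and Ifit1 at 6 h, Cfb, Lcn2, Fpr2, Ciita and H2-Q6 were highest at 24 h, and Lipa, Cd36 and Cyp27a1 were lowest at 24 h.

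Acute-phase and antimicrobial genes were higher for 10 of 15 tested and lower for none, with a median log2 difference of 2.91. Saa3, a serum amyloid gene that macrophages express, was the seventh most abundant RNA with KLA, at 4409 RPKM against 325 and 556 untreated (13.6-fold, 12.3 to 15.0). Lcn2, which binds bacterial siderophores, was at 136 RPKM against 1 read (0.454 RPKM). Hp, the gene of haptoglobin, was also at 0.288 RPKM untreated on 1 read, and at 64.3 with KLA. Lyz2, the macrophage lysozyme, was the other way, at 3936 against 7040 and 8848 RPKM.

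Complement genes went both ways, with 5 of 18 higher and 6 lower. The higher ones were the cascade components C1ra, C2, C3 and Cfb, and Serping1, an inhibitor of C1. Cfb, the factor B of the alternative pathway (chr17:34993319-34999459, mm9), was at 5.21 RPKM untreated, 3.63 in the other untreated library and 1265 with KLA, 243-fold higher (176 to 345). C3 was at 29.1 and 126 RPKM (4.34-fold, 3.88 to 4.86). Among the lower genes, Cd55, which encodes decay-accelerating factor, an inhibitor of complement, was at 0.444 RPKM against 5.66 (12.7-fold, 4.04 to 64.6). Cfp, the gene of properdin, a stabiliser of the alternative pathway, was also lower at 23.6 against 58.9. Of the C1q chains C1qc was at 77.0 against 173 RPKM, and C1qa and C1qb, at 42.5 and 184, were more than 2-fold below the other untreated library (112 and 394) but not below their own control (58.3 and 283). The complement receptor chains Itgam and Itgax were at 34.0 and 63.5 RPKM, against 74.1 and 181.

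Among receptors that sense microbes and antibodies, different ones were high in the 2 libraries. Clec4e, which encodes Mincle, a receptor of mycobacterial glycolipid, was at 20.1 RPKM untreated, 12.2 in the other untreated library and 2932 with KLA on 19750 reads, 146-fold higher (123 to 175). Clec7a, which encodes Dectin-1, the receptor of fungal β-glucan, was lower at 289 against 947 RPKM (3.28-fold, 3.11 to 3.46). The activating Fc receptor gene Fcgr1 was at 15.5 and 127 RPKM and Fcgr3 at 384 and 324. Of 21 Fc receptor and immune tyrosine adaptor genes 7 were higher and 4 lower. Trem2, a lipid-sensing receptor, and its adaptor Tyrobp were both lower, at 165 against 623 and 812 against 2199 RPKM. Cd300lb, an activating immune receptor gene, was at 166 and 9.35 RPKM.

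Scavenger and engulfment receptors were evenly divided, with 7 of 19 higher and 7 lower than both controls. The higher ones included Marco, Msr1 and Olr1, which take up bacteria and modified lipoproteins. Msr1 was at 49.3 and 153 RPKM (3.11-fold, 2.63 to 3.68), Marco at 1.36 and 23.9 and Olr1 at 0.919 and 23.9. The lower ones included Mrc1, the mannose receptor, at 5.98 against 67.7 RPKM (11.3-fold lower, 9.07 to 14.3), and Cd93, at 6.25 against 96.7. The receptor Axl and Gas6, the ligand that bridges it to dying cells, differed in direction. Axl was at 10.5 and 103 RPKM and Gas6 at 14.9 and 1.15 (12.9-fold lower, 6.31 to 30.8), while Mertk was at 28.8 and 29.9.

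Genes of lipoprotein uptake and of cholesterol release went both ways. Of 12 genes of lipoprotein uptake and lysosomal cholesterol export 2 were higher, the scavenger receptors Msr1 and Olr1, and 4 were lower (median log2 difference -0.72). Of 17 LXR and cholesterol efflux genes 4 were higher (23.5%) and 3 lower (17.6%), with a median of -0.17. Over all genes tested the shares were 9.62% and 10.3%. Cd36, the fatty acid and oxidised lipoprotein receptor (chr5:17287508-17355610, mm9), was at 1496 RPKM untreated, 1337 in the other untreated library and 268 with KLA, 5.59-fold lower (5.35 to 5.84). Lipa, the lysosomal acid lipase that frees cholesterol from lipoproteins (chr19:34566806-34601964, mm9), was at 1275, 1171 and 168 RPKM in the same libraries, 7.60-fold lower (7.17 to 8.05). Both were above 1000 RPKM in each untreated library and below 300 with KLA. Nceh1, which hydrolyses stored cholesterol esters, and Soat1, which makes them, were both lower, at 35.8 against 178 and 84.9 against 224 RPKM. Cyp27a1, which makes 27-hydroxycholesterol, was at 0.396 RPKM on 2 reads against 11.0 (27.9-fold lower, 7.36 to 236). Ch25h, which makes 25-hydroxycholesterol, was opposite, with no read in the untreated 24 h library, 2 reads in the other and 47.3 RPKM with KLA, at least 55.1-fold higher.

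Pparg, the nuclear receptor gene that drives lipid uptake and storage, was 17.8-fold lower (10.9 to 31.0) at 3.59 RPKM against 64.0 and 64.1 untreated, and 6 of 14 genes of its list were lower than both controls (median log2 difference -0.90). The fatty acid binding protein gene Fabp4 was at 721 RPKM untreated, 834 in the other untreated library and 74.2 with KLA, 9.72-fold lower (8.09 to 11.8). Mgll, the monoglyceride lipase, was at 6.21 against 41.9 RPKM and Lpin1, a phosphatidate phosphatase, at 0.477 against 12.8. The lipid droplet coat gene Plin2 was at 189 against 547 (2.90-fold lower, 2.69 to 3.12). Angptl4 was the one higher member, at 5.50 against 2.03 RPKM, and less than 2-fold above the other untreated library (3.10).

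**Figure D4:**
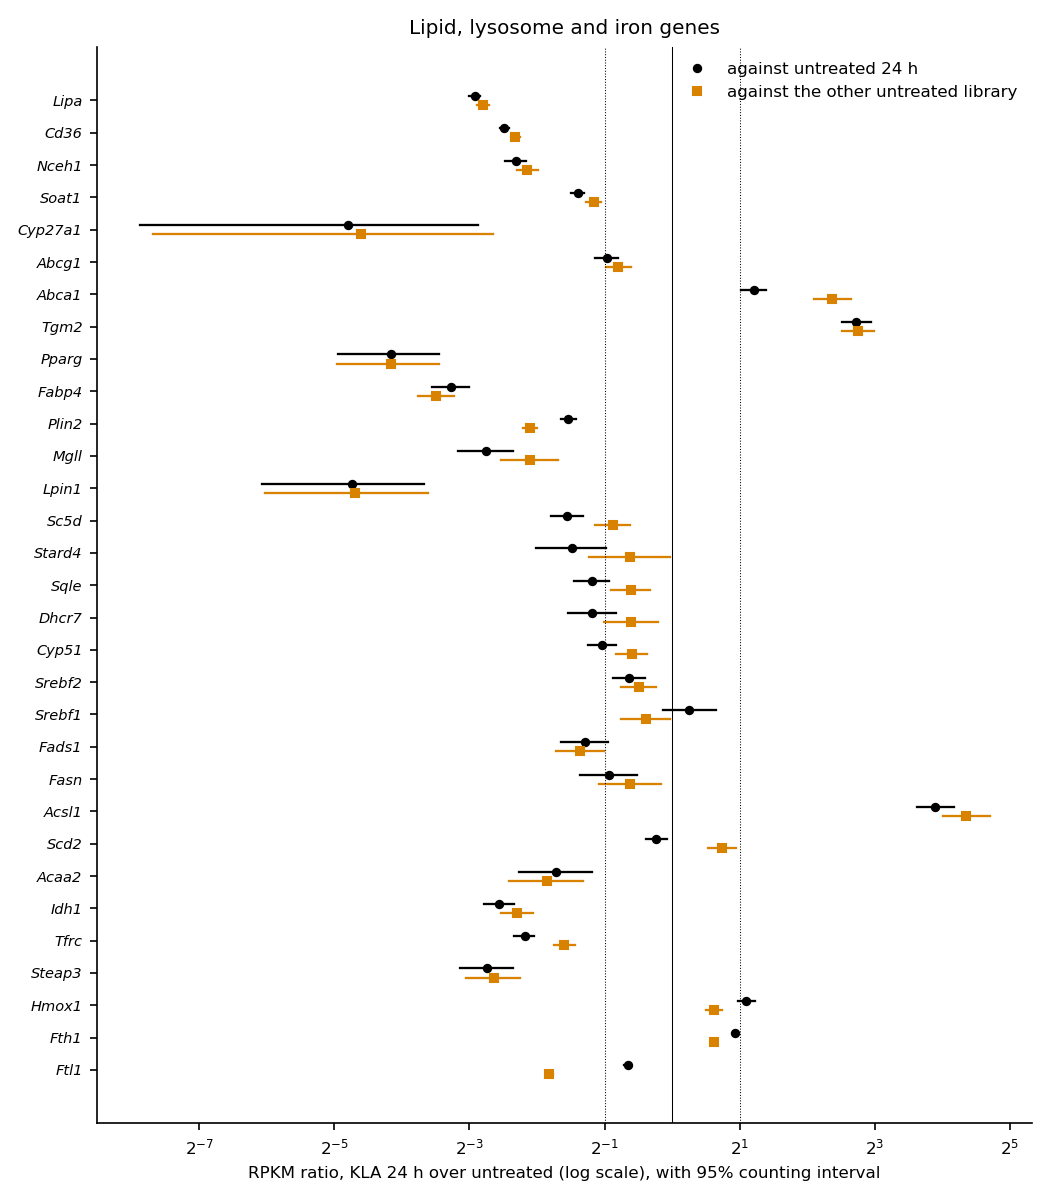
RPKM ratio of KLA 24 h over untreated for lipid, lysosome and iron genes on a log scale, with 95% counting intervals, against the untreated 24 h library (black circles) and the other untreated library (orange squares). Lipa, Cd36, Pparg and Fabp4 lie far below 1 against both controls, while Srebf1 and Scd2 change sides of 1 with the control.

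Cholesterol synthesis genes were lower by small amounts that depended on the control. None of 27 was at least 2-fold higher and 6 were at least 2-fold lower (22.2%, against 10.3% of all genes tested). Among the 6 were Sqle, Cyp51, Sc5d, Dhcr7 and Stard4. The log2 difference was above 0 for 2 of the 27, and its median was -0.63. The 24 h control itself stood above the other one at this list, by a median log2 difference of 0.37. Against both controls 1 of the 27 was lower, as were 7.33% of all genes tested, so that count does not set the list apart. Against the other untreated library 2 were at least 2-fold lower and 1 was higher. The higher one was Ggps1, which makes the geranylgeranyl lipid of prenylated proteins, at 5.06 RPKM untreated, 2.68 in the other untreated library and 6.95 with KLA. Sc5d, which acts late in the pathway, was at 101 RPKM untreated, 63.3 in the other untreated library and 34.4 with KLA (2.94-fold lower, 2.50 to 3.46), and Stard4, a cholesterol carrier, at 15.4, 8.51 and 5.51. Both Sc5d and Stard4 were less than 2-fold below the other untreated library. Srebf2, the gene of the SREBP that controls this pathway, was at 31.2 and 20.0, and Srebf1 at 8.90 and 10.6 with 13.9 in the other untreated library. Mvk was at 5.41 RPKM against 10.5 and 12.3, which put it on the lower side of that other control.

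The SREBP1 peaks come from macrophages given GW3965, an agonist of LXR, and not KLA. They lay within 1000 bases of the start of 21 of these 27 genes (77.8%), against 43.1% of all 10383 genes. All 6 of the lower cholesterol genes had one. The peak of Sc5d (chr9:42072368-42072562, mm9) was centred 82 bases before its start and that of Cyp51 (chr5:4104708-4104902, mm9) 108 bases before. Their normalised tag counts, as given by the authors, were 43.0 and 75.8. Over all genes the share with an SREBP1 peak within 1000 bases was lower among the genes that differed than among those that did not. It was 35.6% of the 999 higher genes (95% exact binomial interval 32.7 to 38.7) and 37.8% of the 1072 lower genes (34.9 to 40.8), against 44.6% of the 8312 others (43.6 to 45.7). The binomial intervals treat genes as independent draws and cover no difference between libraries or between peak lists. Within 20000 bases the share was 61.9% of the higher genes (58.8 to 64.9) and 68.8% of the others (67.8 to 69.8). The lower genes were at 67.0% there (64.1 to 69.8), and those lower than both controls at 69.3% (65.8 to 72.5). For the lower genes no direction is read within 20000 bases. LXR peaks lay within 1000 bases of 50.2% of the higher (47.0 to 53.3), 52.0% of the lower (48.9 to 55.0) and 54.7% of the other genes (53.6 to 55.7). The order of the LXR shares turned with the window, since within 20000 bases they were 85.7% of the higher (83.4 to 87.8), 87.5% of the lower (85.4 to 89.4) and 82.3% of the other genes (81.5 to 83.1). With the better-scored LXR peaks alone, within 1000 bases, they were 27.9%, 29.7% and 26.8%, and 32.1% of the genes lower than both controls (28.8 to 35.5), so no direction is read for LXR. The letters TCAC, 1 base of any kind and CCAC, a sterol element type, were in 1.09% of all promoters. They were in none of the 27 promoters found in RefSeq for 21 of the cholesterol genes. At so low a rate none is a likely count in 27 promoters anyway, so nothing is read from it.

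**Figure D5:**
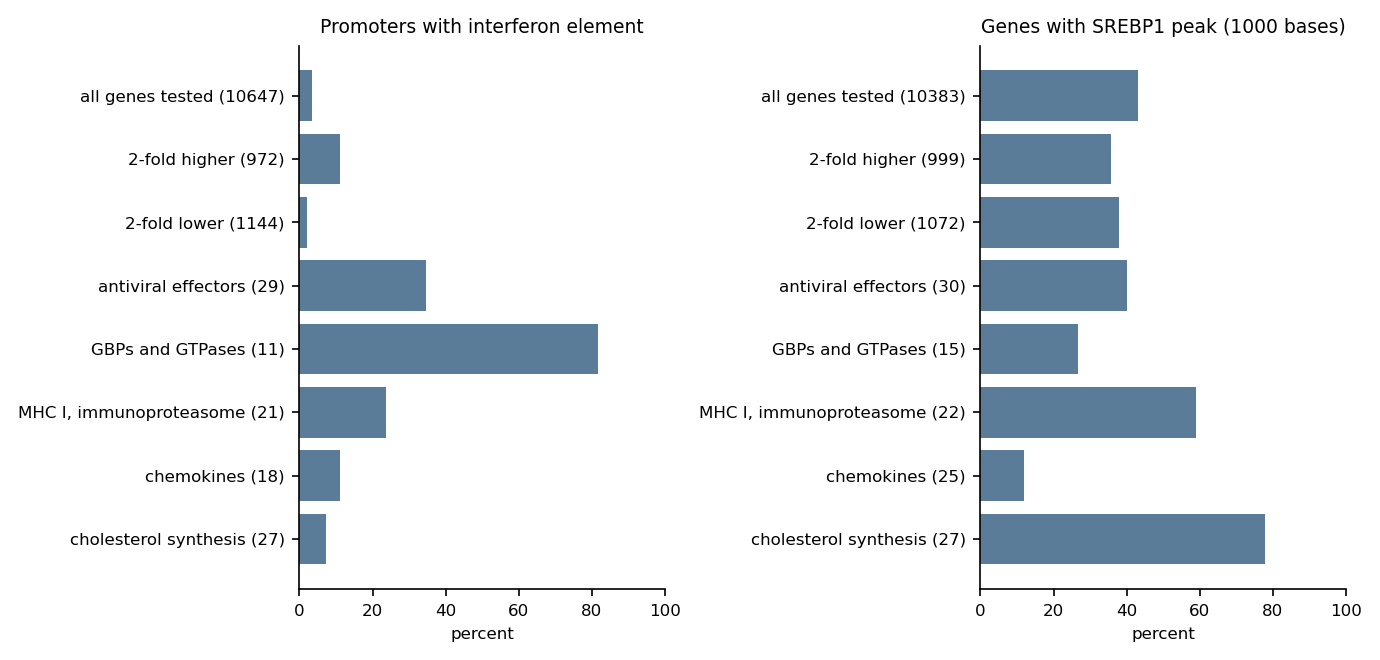
Percent of RefSeq promoters holding the interferon element letters (left, number of promoters in brackets) and percent of genes with an SREBP1 peak within 1000 bases of the start (right, number of genes in brackets). The guanylate-binding protein list stands at 81.8% on the left against 3.40% of all promoters, and the cholesterol list at 77.8% on the right against 43.1% of all genes.

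Fatty acid genes did not share one direction. Acsl1, which activates long-chain fatty acids, was at 12.1 RPKM untreated, 8.86 in the other untreated library and 181 with KLA, 14.9-fold higher (12.4 to 18.1), and Acsl5 was at 34.8 and 77.6. Of 20 fatty acid synthesis and desaturation genes these were the 2 higher ones (10.0%), and Fads1, at 10.8 against 26.4 RPKM, was the lower one (5.00%). Over all genes tested 9.62% were higher and 10.3% lower, so these counts do not set the list apart. Of 23 fatty acid oxidation genes none was higher and 4 were lower than the untreated 24 h library (17.4%, against 10.3% of all genes tested). Only 1 of the 23 was lower than both controls, as were 7.33% of all genes tested. Acaa2, the last enzyme of mitochondrial β-oxidation, was lower than both controls, at 32.0 RPKM untreated, 35.1 in the other untreated library and 9.73 with KLA (3.29-fold, 2.28 to 4.84). Cpt1a, which lets fatty acids into mitochondria, was at 19.7 and 21.0 RPKM. Abca1, which exports cholesterol and is an LXR target, was higher at 29.8 against 12.9 and 5.79, and its partner Abcg1 was at 26.8 against 52.5 and 46.5.

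Lysosomal genes were lower across many functions. Of 42 tested 11 were at least 2-fold lower than both controls, 2 were higher than the untreated 24 h library and the median log2 difference was -0.63, or -0.70 against the other untreated library. The protease gene Ctsd was at 8180 RPKM untreated, 11594 in the other untreated library and 3475 with KLA, 2.35-fold lower (2.31 to 2.40). Psap, the precursor of lipid-binding saposins, was at 7598, 8929 and 3602 RPKM. The proton pump subunit Atp6v0d2 was at 1051, 873 and 244 RPKM (4.31-fold lower, 4.08 to 4.55) and Atp6v0a1 at 124, 133 and 20.1 (6.16-fold lower, 5.31 to 7.18), while Atp6v1d was at 139 and 140.1 RPKM. Tfeb, a transcription factor of lysosomal genes, was at 6.58 against 18.6. The protease genes Ctsc and Ctsh were the 2 higher members, with Ctsc at 100.3, 71.2 and 397 RPKM (3.96-fold, 3.63 to 4.32). Ctss, which trims the class II invariant chain, was at 8195 and 6861.

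Iron storage, uptake and export genes differed from each other. The heavy chain of ferritin, Fth1, was the most abundant RNA of both libraries, at 15658 RPKM untreated, 19448 in the other untreated library and 29682 with KLA (1.90-fold, 1.87 to 1.92), just under the 2-fold mark. The light chain Ftl1 was at 1614 against 2551 and 5678. Genes of iron uptake and export were both lower. Tfrc, the transferrin receptor, was at 35.8 against 163 RPKM (4.55-fold, 4.12 to 5.04), the endosomal reductase Steap3 at 8.69 against 58.1 (6.69-fold, 5.13 to 8.84) and Slc40a1, the exporter ferroportin, at 0.664 against 3.89 on 6 and 34 reads. Hmox1, the haem oxygenase, was at 399 against 186, and less than 2-fold above the other untreated library (259).

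In the list of itaconate and TCA cycle genes 1 of 25 was higher and 1 lower. Irg1, which makes itaconate from a TCA cycle intermediate, was at 6.87 RPKM untreated, 5.61 in the other untreated library and 1620 with KLA. Idh1, the cytosolic isocitrate dehydrogenase (chr1:65205190-65225716, mm9), was at 188, 156 and 31.9 RPKM, 5.88-fold lower (5.04 to 6.89). The other 23 differed by less than 2-fold, with Idh2 and Idh3a at 23.6 and 18.0 RPKM untreated and 16.3 and 20.2 with KLA. The respiratory chain was level, with 1 of 49 genes higher, none lower and a median log2 difference of 0.07. Against the other untreated library that median was -0.33. The 1 higher gene, Atp5g1, was at 5.16 RPKM against 1.45, with 5.12 in the other untreated library.

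Glycolysis genes were higher by small amounts. Of 22 tested, 20 lay above 0 on the log2 scale (median 0.93) and 10 reached 2-fold, or 5 with the other untreated library as control. The hexokinase Hk2 was at 9.47 RPKM untreated, 7.32 in the other untreated library and 34.1 with KLA, 3.60-fold higher (2.98 to 4.39), and Pfkl, a phosphofructokinase, was at 10.4, 11.2 and 33.1. Slc16a3, the lactate exporter MCT4, was at 16.5, 15.2 and 75.1 RPKM, and at 9.72 and 20.2 at 6 and 12 h of KLA. Slc2a6, a hexose transporter of the GLUT family, was the highest member, at 10.8 and 189 RPKM (17.5-fold, 13.3 to 23.4), while Slc2a1, the main glucose transporter GLUT1, was at 32.2 and 70.5. Gapdh, for which processed copies exist in the genome, was listed at 9.25 and 20.0 RPKM, and its level is uncertain.

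Of 15 nitric oxide and arginine genes 5 were higher, 1 was lower and 9 did not reach 2-fold, with a median log2 difference of 0.05 (-0.03 against the other untreated library). Nos2, the inducible synthase (chr11:78734361-78773626, mm9), was at 146 RPKM against 4 reads untreated. Slc7a2, an arginine transporter, was at 2.90 and 140.4 RPKM (48.4-fold, 37.3 to 63.8). Ass1, which rebuilds arginine from citrulline, was at 0.474 and 14.0, and Gch1, which makes the cofactor of the synthase, at 16.5 and 97.6. Arg1, the arginase of alternatively activated macrophages, was at 9.69, 13.5 and 16.0 RPKM, while Arg2 was at 0.819 and 17.7 (21.6-fold, 7.08 to 107). The lower gene was Sat1, which acetylates polyamines, at 36.8 against 102 and 101 RPKM. Among 16 genes of alternative activation 6 were higher and 3 lower than both controls. The lower ones were Mrc1, Clec10a and Cd200r1, the last at 16.6 against 86.1 RPKM. Retnla was at 9.71 and 10.6.

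Among oxidative stress genes 7 of 27 were higher (25.9%, against 9.62% of all genes tested) and 1 was lower. Higher than both controls were 5 of the 27. Sod2, the mitochondrial superoxide dismutase, was at 21.1 RPKM untreated, 22.5 in the other untreated library and 452 with KLA, 21.4-fold higher (18.6 to 24.7). Prdx5, a peroxiredoxin, was at 128, 213 and 1460 RPKM (11.4-fold, 9.94 to 13.1). Gpx1, the abundant glutathione peroxidase, was lower, at 960.3, 1408 and 258 (3.72-fold, 3.43 to 4.05). Cybb, the catalytic subunit of the phagocyte NADPH oxidase, was at 222 and 907 RPKM (4.09-fold, 3.92 to 4.27).

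Prostaglandin genes differed by branch. Ptgs2, the inducible cyclooxygenase, was at 1.12 RPKM untreated and 266 with KLA, and Ptges, which makes prostaglandin E2, at 1.17 and 97.7 (83.8-fold, 46.6 to 168). The constitutive Ptgs1 was lower, at 3.65 against 9.04. Hpgds, which makes prostaglandin D2, was at 69.9 RPKM untreated, 41.8 in the other untreated library and 6.92 with KLA, 10.1-fold lower (7.75 to 13.4). The thromboxane synthase Tbxas1 and the leukotriene genes Alox5ap and Lta4h were at 15.1, 42.1 and 23.5 RPKM, against 33.8, 130.0 and 63.4. Of 17 genes tested 5 were higher and 7 lower, all 7 of them against both controls. Ltc4s, counted among the 5, was at 1.27 RPKM against 0 in its own control and 6.95 in the other.

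In the list of matrix proteases and matrix genes 10 of 23 were higher and 5 lower than both controls, and inhibitors of proteases had the largest differences. Timp1 was at 2.99 RPKM untreated, 7.71 in the other untreated library and 349 with KLA, 117-fold higher (49.8 to 361). Serpinb2, an inhibitor of plasminogen activators, was at 144 RPKM against 2.75. Timp2 was opposite, at 50.9 against 253 (4.97-fold lower, 4.51 to 5.48). The proteases were divided too, with Mmp14 and Mmp13 higher, at 141 and 24.3 against 16.5 and 2.75, and the macrophage elastase Mmp12 lower, at 611 against 2896 and 3132 RPKM (4.74-fold, 4.61 to 4.88).

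Regulators of cell death were higher for 15 of 31 genes and lower for 1. Mlkl, the executor of necroptosis, was at 6.59 and 125 RPKM (18.9-fold, 13.0 to 28.5), and Casp4 (also known as caspase-11), which senses lipopolysaccharide inside cells, at 14.6 and 171 (11.8-fold, 8.90 to 15.8). Survival genes of the Bcl2a1 family were higher with them, Bcl2a1d at 38.6 against 3.40 RPKM, though its copies share reads. Mcl1 was at 244 and 248. In the cell cycle list 4 of 28 genes were higher (14.3%) and 3 lower (10.7%), near the 9.62% and 10.3% of all genes tested. The inhibitors of cyclin-dependent kinases differed from each other. Cdkn1a, which encodes p21, was at 37.3 and 178 RPKM, and Cdkn1c, which encodes p57 (chr7:150644244-150646955, mm9), at 525, 297 and 21.8 in the untreated 24 h, other untreated and KLA libraries (24.1-fold lower, 19.9 to 29.4). Cdkn2c was at 1.69 against 10.5.

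Among factors of macrophage identity the master regulator Spi1, which encodes PU.1, was at 162 RPKM untreated, 284 in the other untreated library and 145 with KLA. Batf2, an interferon-induced factor, was at 1.97 and 133 RPKM (67.2-fold, 32.3 to 168), and Irf8 at 47.0 and 117. The LXR gene Nr1h3 was at 21.9 and 19.1, and Cebpa at 59.4 and 26.7. Of 38 genes of the list 7 were higher and 7 lower (18.4% each), against 9.62% and 10.3% of all genes tested. Against the other untreated library 4 were lower. Lower than both controls were 3 of the 38, and 7.33% of all genes tested.

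Of 23 genes of the endoplasmic reticulum stress and amino acid response list 5 were higher and none was lower. The 5, most of them known from the amino acid response, were Asns, Mthfd2, Slc7a5, Trib3 and Ddit3, with the asparagine synthetase gene Asns at 4.82 and 20.4 RPKM (4.23-fold, 2.70 to 6.90). The chaperone Hspa5, the main target of the unfolded protein response, was at 262 and 479. Cytosolic ribosomal protein genes had a median log2 difference of -0.22 over 44 genes tested, but -0.77 against the other untreated library, and the 2 untreated libraries differed by -0.53 at this list. No direction is read from it.

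Among the 15 highest and 15 lowest ratios over all genes, several belong to no list. Ms4a4c, a membrane protein gene induced by interferon, was at 0.673 RPKM on 3 reads untreated and 583 with KLA. AW112010, a transcript of unsettled coding status, was at 9.99 and 2734 RPKM (274-fold, 177 to 449). Serpina3f had 1 read untreated and 804 with KLA. In the other untreated library Ms4a4c and Serpina3f had no read and AW112010 was at 11.1 RPKM. At the other end stood Mamdc2, an extracellular matrix gene (chr19:23377099-23522812, mm9), at 263 RPKM untreated, 241 in the other untreated library and 4.15 with KLA (63.4-fold lower, 45.8 to 90.2), and Epas1, which encodes HIF-2α, at 61.9, 42.0 and 3.91 (15.8-fold lower, 12.1 to 21.1). Hif1a, its counterpart in the glycolysis list, was higher at 47.2, 24.3 and 105 RPKM. The costimulatory receptor gene Cd28 was at 13.0 and 9.04 RPKM untreated and at 0.0866 with KLA, on 1 read. Rgs18, Matk and Fam198b were at 0.805, 1.22 and 0.846 RPKM, against 19.6, 29.1 and 47.2.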

How the data were processed

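The RPKM table (mm9) was deposited by the authors. Bowtie 0.12.7, STAR and HOMER are named per the submitters' processing notes. The sources used here do not say how strand and reads shared by copies were counted. Reads were recovered as RPKM × length × library total, whole within 0.01 for 99.97% of values above 0. Log2 differences are of RPKM + 1 (pseudocount 1). Ratio intervals are 95% Clopper-Pearson intervals on reads, tested on simulated data, and a count of 0 was set to a floor of 3 reads. PCR reads are not independent molecules, so both cover counting error only.

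Peaks were called by the authors with HOMER, per the file headers, in 1 list per factor, with 13984 SREBP1 and 40660 LXR peaks. Normalised tag counts, a signal, were brought by the authors to 10000000 tags per library, and the authors' peak score served only to rank peaks. The LXR sample is titled as GW3965 while its treatment label reads as a control.

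The 39 gene lists (920 genes, 845 tested), the marker lists and the genes named were chosen with earlier results of these data known. Named genes were the 15 highest and 15 lowest log2 differences held against both controls with at least 20 reads, extreme, abundant or control-dependent members of each list, the 10 most abundant genes and defining regulators. Other members were added for their role, with their values seen. A few list members are not reported here. With 1 library a side nothing was tested. Alternatives were the control library, pseudocount, filters, scaling, transcript choice and peak window. Python 3.11.15 with scipy 1.17.1 was used.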

Additional observations from a re-analysis of the deposited data

How the results depend on the processing

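No paired analysis was possible because each group has 1 library and no replicate numbers. The 36 list counts of at least 5 genes were recomputed under 9 alternatives. Of these 324 values, 316 stayed within 1.5 times the reported count. Smaller counts are not among them, and some moved more. Lower Toll-like receptor genes, for example, were 2 as reported and 0 with the other untreated library. No list median of at least 1 on the log2 scale and none of the 30 genes with the most extreme differences changed sign. Medians near 0 can, as that of the respiratory chain did. The share of called genes that were higher was 48.2% and ran from 46.2% to 54.2%. With a pseudocount of 3 the genes lower numbered 645, higher genes of the endoplasmic reticulum stress and amino acid response list 3 and lower macrophage identity genes 4. With the other untreated library, 8 Toll-like receptor genes, 5 glycolysis genes and 7 standard proteasome genes were higher, as was 1 cholesterol synthesis gene, and 2 cholesterol synthesis genes and 4 identity genes were lower. With the mean of both untreated libraries 2 cholesterol synthesis genes were lower. Within 20000 bases of the start, SREBP1 peaks lay at 61.9% of the higher and 67.0% of the lower genes against 68.8% of the genes that reached neither side, and LXR peaks at 85.7% and 87.5%, against 82.3%. With the better-scored part of each peak list, SREBP1 shares were 28.4% and 30.5%, against 35.3%, and LXR shares 27.9% and 29.7%, against 26.8%. For LXR both alternatives thus put the genes that differed above the others, where all peaks within 1000 bases put them below. With only whole peaks inside the window the SREBP1 share of the lower genes was 34.8%, against 42.0%. The cause of these differences was not tested. Genes with few reads are the least certain, since 1 read in 1 kb was worth 0.374 to 0.453 RPKM.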
